A study of Mus musculus with 441 samples.

Results

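The genes described here are 35 genes that act in G2 and mitosis, listed by name: cyclins and kinases that start mitosis, the spindle checkpoint, the anaphase-promoting complex, centromere proteins, motors, cytokinesis factors and the markers Top2a and Mki67. They were listed by name, without a threshold on measured values, and all 35 were found among 21001 names in the bulk RNA table, 22392 in the table of single mouse embryonic stem cells (mESCs), 18848 in the table of neural precursor cells (NPCs) and 23142 windows in the ChIP table. The study compared how mouse pluripotent cells express their genes, cell by cell and in bulk, when grown in different media or without mature microRNAs. Single cells were captured on C1 microfluidic chips, 1 plate per culture except for a pair of serum plates. The groups were v6.5 mESCs in 2i+LIF (94 cells, 1 bulk library), where 2i blocks the kinases MEK and GSK3. The next were Dgcr8 -/- mESCs, a line built in the v6.5 background that lacks a microRNA processing factor, in serum+LIF (84 cells, 2 bulk libraries). The NPCs were nestin-positive cells derived from v6.5 mESCs, selected in ITSFn and expanded in N2 with bFGF on laminin (54 cells, no bulk library). The last were v6.5 mESCs in serum+LIF (90 and 93 cells on serum plates 1 and 2, 2 bulk libraries). The 3 mESC cultures all received LIF, the cytokine that holds mESCs undifferentiated. ChIP-seq gave 1 library per mESC culture for RNA polymerase II (RNAP2), for each of 5 histone marks and for whole cell extract (WCE).

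Cells switch on most of these genes together late in the cell cycle. Cyclin B with Cdk1 and the Polo and Aurora kinases drive entry into mitosis, the spindle checkpoint holds chromosome separation until kinetochores are attached, and the anaphase-promoting complex with Cdc20 then destroys securin and the cyclins. The DREAM complex represses these promoters in resting cells through an element called CHR, and Mybl2 and Foxm1 activate them, often beside CCAAT boxes bound by NF-Y. Mouse embryonic stem cells are known for fast cycles with a short G1.

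Promoters of 3 members are printed because they carry the letters of both elements named above. They are the first 3 members, in order of how closely their cell-to-cell level followed the other members over the 4 mESC plates, whose promoter held both a CHR-like motif and a CCAAT box. Sequence came from RefSeq promoters on build GRCm38.p6, and each line is the 250 bases before the annotated start, 5′ to 3′ on the strand of the gene. Capitals mark every match, on either strand, to TTTGAA or TTCGAA (CHR-like) and to CCAAT, so that TTCAAA and ATTGG are matches on the other strand. Bub3, a spindle checkpoint protein, lies at chr7:131560120-131560369 on the plus strand. Top2a, the topoisomerase that untangles sister chromatids, lies at chr11:99024190-99024439 on the minus strand. Mki67, which coats mitotic chromosomes and is read as Ki-67 in pathology, lies at chr7:135716380-135716629 on the minus strand.
Bub3: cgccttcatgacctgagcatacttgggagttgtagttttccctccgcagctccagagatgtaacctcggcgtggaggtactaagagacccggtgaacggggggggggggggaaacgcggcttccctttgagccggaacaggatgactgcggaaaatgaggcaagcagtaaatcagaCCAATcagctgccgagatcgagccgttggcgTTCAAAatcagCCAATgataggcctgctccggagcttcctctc
Top2a: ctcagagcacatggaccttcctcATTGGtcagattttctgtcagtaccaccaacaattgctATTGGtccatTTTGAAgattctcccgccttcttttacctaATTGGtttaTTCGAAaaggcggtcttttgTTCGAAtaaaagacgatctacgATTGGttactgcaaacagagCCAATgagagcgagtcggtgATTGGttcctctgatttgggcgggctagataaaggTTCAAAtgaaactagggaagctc
Mki67: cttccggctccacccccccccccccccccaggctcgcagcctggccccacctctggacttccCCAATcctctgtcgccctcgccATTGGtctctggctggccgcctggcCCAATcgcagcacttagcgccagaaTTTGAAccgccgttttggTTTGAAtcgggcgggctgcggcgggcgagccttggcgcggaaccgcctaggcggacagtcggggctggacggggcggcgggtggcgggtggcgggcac

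The Bub3 promoter held 1 CHR-like match and 2 CCAAT boxes, the Top2a promoter 4 and 6, and the Mki67 promoter 2 and 3. In Mki67 both CHR-like matches lay between the CCAAT boxes and the start. Of the members, 30 matched the RefSeq table, with 33 promoters. A CCAAT box stood in 28 of these 33 (84.8%), against 33.8% of all 32851 promoters of the same length. At least 2 CCAAT boxes stood in 18 (54.5%), against 10.1% of all promoters. TTTGAA or TTCGAA stood in 15 (45.5%), against 17.1%, and both kinds together in 14 (42.4%), against 6.02%. These matches describe letters in a window and are not measured binding sites.

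TPM, a share of transcripts corrected for their length, keeps no record of read number. Sequencing depth is therefore unknown for RNA, and each library is described by how many names reached TPM 1, which was 8991 in the 2i bulk library, 11057 and 10820 in the Dgcr8 -/- libraries and 8367 and 7562 in the serum libraries. The median cell held 9974 names on the 2i plate, 9317.5 on the Dgcr8 -/- plate, 7353 on the NPC plate and 7780 and 7648 on the serum plates. Dgcr8 itself, the deleted gene, was at 4.66 TPM in the 2i bulk library, 4.03 and 2.20 TPM in the Dgcr8 -/- libraries, and 10.6 and 10.3 TPM in the serum libraries, lower without reaching 0, and the labels do not say which exons were deleted. In most cells, pluripotency markers reached TPM 10 for 9 of 9 on the 2i and Dgcr8 -/- plates, 1 of 9 on the NPC plate and 6 of 9 on each serum plate. Vim, an intermediate filament of precursors, was at TPM 10 or more in 100% of NPCs and Nes, which encodes nestin, in 46.3%. Of the 54 NPCs, 4 carried 7 to 9 of the 9 pluripotency markers at TPM 10 or more, as the mESCs did with 4 to 9, while the other 50 carried 0 to 4, so the main results on NPCs are also given without these 4 cells. The values listed for Plk1 were identical, in all RNA tables, to those listed for the unrelated gene Dctn5, so values under Plk1 cannot be assigned to Plk1 alone. Cenpa, Hmmr and Nek2 also appear under second names with the same values.

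In bulk RNA, 29 of the 35 genes were called higher and 2 lower in Dgcr8 -/- cells than in serum-grown v6.5 cells, and 8 were called higher and 4 lower in 2i. A gene was called at a Benjamini-Hochberg adjusted p under 0.05 in limma, over 10081 names with a mean TPM of at least 1. The calls must be read against the rest of the table, because 62.5% of all names were called higher and 11.7% lower in Dgcr8 -/- cells, and 20.4% higher and 11.8% lower in 2i. The median name stood 0.92 higher in Dgcr8 -/- cells and 0.20 higher in 2i, as log2 change. The median of the 35 genes was 1.29 in Dgcr8 -/- cells and 0.32 in 2i. Both comparisons use the same serum libraries and share their error. Relative to the median name, with its change set to 0, 16 of the 35 were called higher and 6 lower in Dgcr8 -/- cells, where the background was 28.5% higher and 30.0% lower. The same step in 2i left 5 higher and 10 lower, beside a background of 15.3% higher and 17.4% lower. All 35 passed the filter on low values, Mki67 through the groups where it was high, since its serum mean was 0.957 TPM. Below, a relative value is a log2 change with that of the median name set to 0. In bulk RNA, fewer cells in a phase and less RNA per cell cannot be told apart. The serum libraries carry different plate numbers in their titles, and the labels do not say whether libraries of a group came from separate cultures, so the spread that the p-values rest on may be technical. The 2i group has 1 library, and the fit assumes that it varies like the pairs of the other groups.

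**Figure D1:**
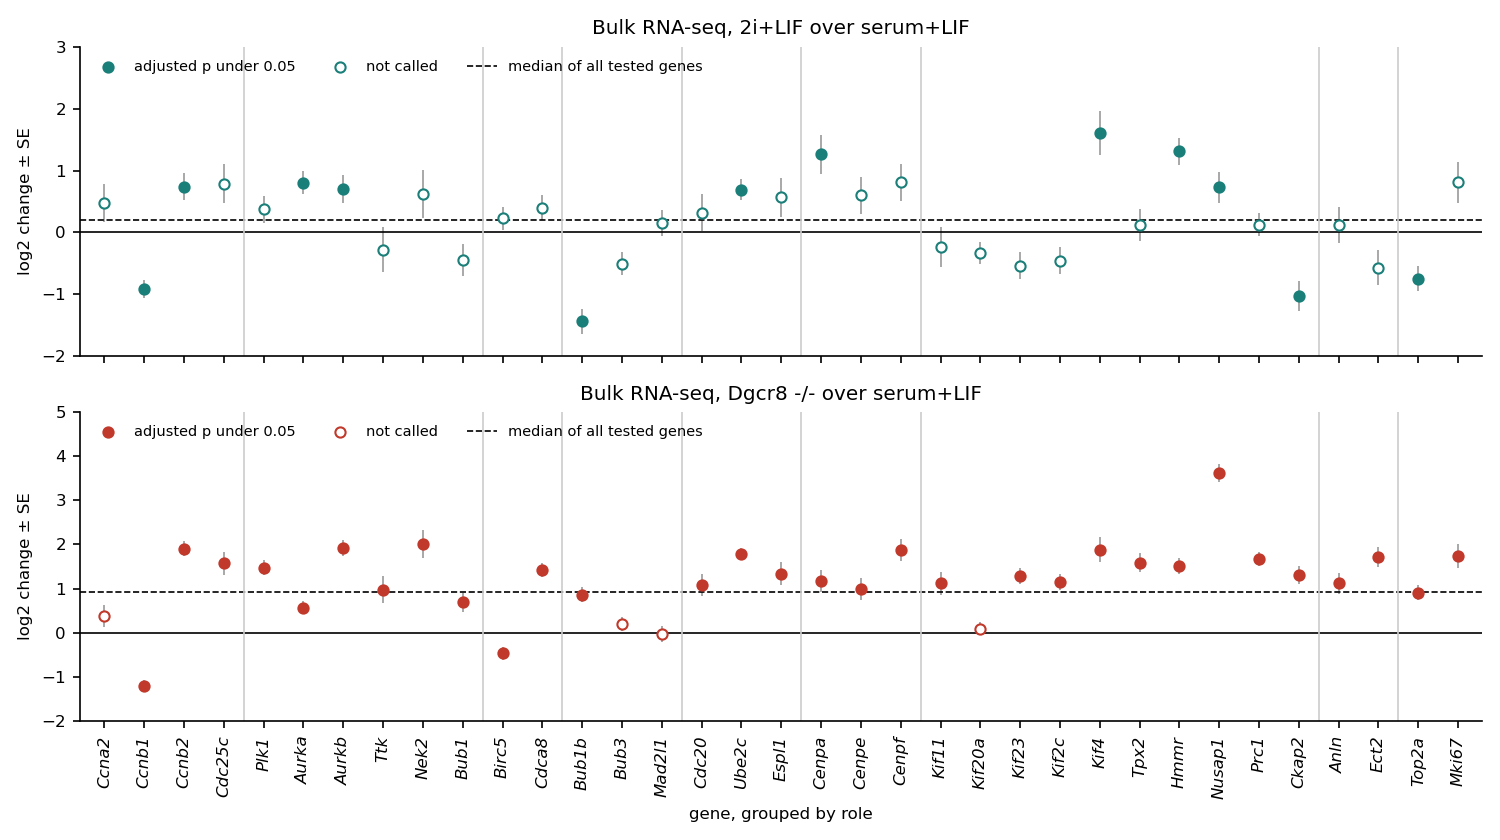
Log2 change of each of the 35 genes in bulk RNA with its standard error (vertical axis), for 2i over serum (upper panel) and Dgcr8 -/- over serum (lower panel), grouped by role. Filled points passed an adjusted p of 0.05, and the dashed line is the median of all tested names, at 0.20 and 0.92. Nusap1 stands farthest above that line in Dgcr8 -/- cells and Ccnb1 farthest below it.

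Of the cyclins, Ccnb1 and Ccnb2 moved in opposite directions. Ccnb1, the main mitotic cyclin, was at 428 TPM in 2i and at 344 and 356 TPM in Dgcr8 -/- cells, against 866 and 748 TPM in serum. Both knockout libraries and the 2i library lay under both serum libraries. The log2 change was -1.20 ± 0.12 (SE) in Dgcr8 -/- cells (limma, Benjamini-Hochberg adjusted p = 3.2e-06) and -0.91 ± 0.15 in 2i (adjusted p = 0.00057), which is -2.12 and -1.11 relative to the median name. Ccnb2, the B-type cyclin found mainly at the Golgi, was at 94.9 TPM in 2i and at 207 and 222 TPM in Dgcr8 -/- cells, against 66.5 and 48 TPM in serum. It was called higher in both comparisons, by 1.91 in Dgcr8 -/- cells and 0.74 in 2i (0.99 and 0.54 relative to the median name). Cdc25c, a phosphatase that activates Cdk1, was at 5.16 TPM in 2i and at 9.24 and 10.0 TPM in Dgcr8 -/- cells, against 3.02 and 2.17 TPM in serum, and its change of 1.57 in Dgcr8 -/- cells was called (0.65 relative, also called), while that of 0.79 in 2i was not. Ccna2, the cyclin of S phase and G2, was low in bulk, at 3.70 TPM in 2i and 3.39 and 3.40 TPM in Dgcr8 -/- cells, against 2.47 and 2.27 TPM in serum. Neither change of Ccna2 was called (0.38 in Dgcr8 -/- cells and 0.48 in 2i), and the first was -0.54 relative to the median name.

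All 6 mitotic kinases were called higher in Dgcr8 -/- cells before the shift of the median name was taken off, and 3 were called higher and 1 lower after it. The background was 62.5% of all names called higher before that step, and 28.5% higher and 30.0% lower after it. Aurkb, the kinase of the chromosomal passenger complex, was at 32.7 TPM in 2i and at 75.6 and 79.2 TPM in Dgcr8 -/- cells, against 19.4 and 20 TPM in serum. Its log2 change of 1.92 ± 0.18 in Dgcr8 -/- cells was 1.002 relative to the median name, and the change of 0.70 ± 0.22 in 2i was called as deposited but not relative to the median name (0.51). Nek2, which splits the centrosomes, was at 3.64 TPM in 2i and at 8.05 and 15.2 TPM in Dgcr8 -/- cells, against 2.57 and 1.53 TPM in serum, a called change of 2.01 in Dgcr8 -/- cells (1.09 relative, also called). The row listed for Plk1, the Polo kinase, had 55.2 TPM in 2i and 109.2 and 131.5 TPM in Dgcr8 -/- cells, against 39.1 and 46 TPM in serum, a called change of 1.48 in Dgcr8 -/- cells (0.56 relative, also called) that Dctn5 shares. Aurka, the kinase of the spindle poles, stood higher in 2i than in any other library, at 244 TPM, with 214 and 200.1 TPM in Dgcr8 -/- cells, against 154.04 and 125.8 TPM in serum. Its change of 0.80 ± 0.18 in 2i held relative to the median name (0.61), whereas its called change of 0.57 ± 0.15 in Dgcr8 -/- cells became a called decrease of -0.35. Bub1, a checkpoint kinase at kinetochores, was at 14.1 TPM in 2i and 32.5 and 31.8 TPM in Dgcr8 -/- cells, against 22.6 and 16.9 TPM in serum. Ttk, the kinase Mps1, was at 5.45 TPM in 2i and 14.8 and 14.1 TPM in Dgcr8 -/- cells, against 9.80 and 4.68 TPM in serum. Bub1 and Ttk were called higher in Dgcr8 -/- cells, by 0.69 and 0.98, but stood at -0.23 and 0.06 relative to the median name, where neither was called. In 2i, Bub1 was called lower relative to the median name (-0.64) and not as deposited (-0.44).

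The partners of Aurkb in the chromosomal passenger complex went separate ways. Cdca8, or borealin, was at 74.5 TPM in 2i and 150.6 and 155.1 TPM in Dgcr8 -/- cells, against 62.5 and 50.7 TPM in serum, a called change of 1.42 in Dgcr8 -/- cells (0.51 relative, also called). Birc5, or survivin, was at 142.5 TPM in 2i and at 93.7 and 82.1 TPM in Dgcr8 -/- cells, against 124.2 and 119.2 TPM in serum. Both knockout libraries lay under both serum libraries, and the change of -0.47 ± 0.15 was called (limma, adjusted p = 0.015), as was its value of -1.39 relative to the median name. In 2i, Birc5 differed by 0.23 and was not called.

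Of the 3 spindle checkpoint genes outside the group of mitotic kinases, 1 was called higher in Dgcr8 -/- cells. Bub1 and Ttk were counted with the kinases above, and both were called higher there as deposited. Bub1b, or BubR1, which inhibits Cdc20, was at 23 TPM in 2i and at 116.8 and 118.4 TPM in Dgcr8 -/- cells, against 70.2 and 58.6 TPM in serum. It was called lower in 2i, by -1.44 ± 0.21 (limma, adjusted p = 0.00025; -1.64 relative, also called), and higher in Dgcr8 -/- cells, by 0.86 ± 0.17, which was -0.05 relative to the median name and not called. Bub3, its partner, was at 79.9 TPM in 2i and at 128.8 and 133.3 TPM in Dgcr8 -/- cells, against 106.8 and 121.4 TPM in serum. Mad2l1, or Mad2, was at 62.9 TPM in 2i and at 53.7 and 56.7 TPM in Dgcr8 -/- cells, against 60.2 and 52.7 TPM in serum, so the knockout and serum libraries overlapped. Neither Bub3 nor Mad2l1 was called as deposited, and relative to the median name both were called lower in Dgcr8 -/- cells (-0.72 and -0.95), as was Bub3 in 2i (-0.70).

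The 3 members that act with the anaphase-promoting complex, Ube2c, Cdc20 and Espl1, stood higher in both knockout libraries than in both serum libraries. Ube2c, the ubiquitin-conjugating enzyme of the complex, was at 235 TPM in 2i and at 529.96 and 483 TPM in Dgcr8 -/- cells, against 135.4 and 156.07 TPM in serum. Its log2 change was 1.79 ± 0.14 in Dgcr8 -/- cells (limma, adjusted p = 3.3e-07) and 0.69 ± 0.17 in 2i (adjusted p = 0.0076), or 0.87 and 0.49 relative to the median name, where that in 2i was not called. Cdc20, the activator of the complex, was at 14.9 TPM in 2i and at 25.6 and 26.5 TPM in Dgcr8 -/- cells, against 15 and 9.11 TPM in serum. Espl1, or separase, which cuts cohesin, was at 4.76 TPM in 2i and at 8.57 and 9.09 TPM in Dgcr8 -/- cells, against 3.41 and 2.42 TPM in serum. Cdc20 and Espl1 were called higher in Dgcr8 -/- cells (1.09 and 1.34), not so relative to the median name (0.17 and 0.42), and neither was called in 2i.

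Among centromere genes, Cenpa, the histone H3 variant of centromeres, was at 19.9 TPM in 2i and at 14.5 and 23.8 TPM in Dgcr8 -/- cells, against 7.68 and 7.73 TPM in serum. It was called higher in both comparisons, by 1.26 ± 0.31 in 2i and 1.17 ± 0.26 in Dgcr8 -/- cells. As values relative to the median name these were 1.07, which was called, and 0.25, which was not. Cenpf, a large kinetochore protein that appears in G2, was at 7.87 TPM in 2i and at 19.8 and 15.8 TPM in Dgcr8 -/- cells, against 4.70 and 3.500 TPM in serum, a called change of 1.88 in Dgcr8 -/- cells (0.96 relative, also called). Cenpe, a kinetochore motor, was at 7.54 TPM in 2i and at 11 and 9.42 TPM in Dgcr8 -/- cells, against 5.22 and 4.12 TPM in serum, a called change of 0.99 in Dgcr8 -/- cells that was 0.07 relative to the median name and not called.

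Nusap1, which bundles spindle microtubules, had the largest change of the 35 genes in Dgcr8 -/- cells. It was at 16.9 TPM in 2i and at 127.8 and 135.1 TPM in Dgcr8 -/- cells, against 11.3 and 8.48 TPM in serum. The knockout libraries lay far above every other library, and the log2 change was 3.62 ± 0.20 (limma, adjusted p = 2.7e-08), or 2.70 relative to the median name, while that in 2i was 0.73 ± 0.25, called as deposited but not relative to the median name (0.53). Hmmr, a spindle pole protein, was at 56.6 TPM in 2i and 61.6 and 68.4 TPM in Dgcr8 -/- cells, against 23 and 21.4 TPM in serum, and was called higher in both comparisons (1.31 and 1.51, or 1.11 and 0.59 relative to the median name). Kif4, a chromokinesin, was at 8.24 TPM in 2i and 10.1 and 10.3 TPM in Dgcr8 -/- cells, against 2.90 and 1.36 TPM in serum, and was likewise called in both (1.61 and 1.88, or 1.41 and 0.97 relative to the median name). Tpx2, an activator of Aurka, was at 27.1 TPM in 2i and 75.4 and 77.9 TPM in Dgcr8 -/- cells, against 30.4 and 20.3 TPM in serum. Prc1, which crosslinks the central spindle, was at 60.7 TPM in 2i and 187 and 170.5 TPM in Dgcr8 -/- cells, against 55.3 and 55.7 TPM in serum. Tpx2 and Prc1 were called higher in Dgcr8 -/- cells (1.59 and 1.67, or 0.67 and 0.75 relative, also called), and differed in 2i by 0.12 and 0.13, not called.

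Kif23, the kinesin of centralspindlin, was at 27.6 TPM in 2i and 105.3 and 95.1 TPM in Dgcr8 -/- cells, against 45.2 and 36.2 TPM in serum. Kif2c, a microtubule depolymerase, was at 25.9 TPM in 2i and 77.2 and 84.1 TPM in Dgcr8 -/- cells, against 38.6 and 33.3 TPM in serum. Kif11, the kinesin that separates the spindle poles, was at 4.03 TPM in 2i and 11.5 and 12.1 TPM in Dgcr8 -/- cells, against 6.09 and 3.91 TPM in serum. These 3 were called higher in Dgcr8 -/- cells (1.29, 1.15 and 1.12), with 0.37, 0.23 and 0.20 relative to the median name, of which only Kif23 was called. In 2i, Kif23 (-0.73) and Kif2c (-0.65) were called lower relative to the median name and not as deposited. Kif20a, a kinesin of cytokinesis, was at 111.4 TPM in 2i and 146.1 and 153.5 TPM in Dgcr8 -/- cells, against 148.2 and 133.4 TPM in serum, and its knockout and serum libraries overlapped (0.09 as deposited, not called, and -0.83 relative to the median name, called lower). Ckap2, which promotes microtubule growth, was at 7.47 TPM in 2i and at 39.3 and 44 TPM in Dgcr8 -/- cells, against 16.8 and 15.8 TPM in serum. It was called lower in 2i (-1.03 ± 0.25, or -1.23 relative, also called) and higher in Dgcr8 -/- cells (1.30 ± 0.20, or 0.38 relative, not called).

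Of the cytokinesis genes, both were called higher in Dgcr8 -/- cells as deposited and Ect2 alone relative to the median name. The shares of all names called higher were 62.5% and 28.5%. Anln, which scaffolds the contractile ring, was at 7.62 TPM in 2i and 15.2 and 17.6 TPM in Dgcr8 -/- cells, against 7.96 and 6.07 TPM in serum, a change of 1.12 in Dgcr8 -/- cells (0.21 relative). Ect2, which activates RhoA at the midzone, was at 11 TPM in 2i and 58.7 and 56.8 TPM in Dgcr8 -/- cells, against 20.9 and 13.5 TPM in serum, a change of 1.72 in Dgcr8 -/- cells (0.80 relative). In 2i, Anln differed by 0.12 and Ect2 by -0.57, and neither was called as deposited, while Ect2 was called lower relative to the median name (-0.77). Top2a was at 44.3 TPM in 2i and 141.3 and 142.7 TPM in Dgcr8 -/- cells, against 83.7 and 67.6 TPM in serum. It was called lower in 2i (-0.75 ± 0.20, limma adjusted p = 0.014, or -0.95 relative, also called) and higher in Dgcr8 -/- cells (0.91 ± 0.17), where it sat on the median name (-0.01). Mki67 was at 2.37 TPM in 2i and 5.57 and 5.26 TPM in Dgcr8 -/- cells, against 1.32 and 0.593 TPM in serum, with a called change of 1.74 in Dgcr8 -/- cells (0.82 relative, also called) and one of 0.81 in 2i that was not called. Its serum mean of 0.957 TPM lies under the filter on mean TPM, so its call as higher leans on the filter.

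**Figure D2:**
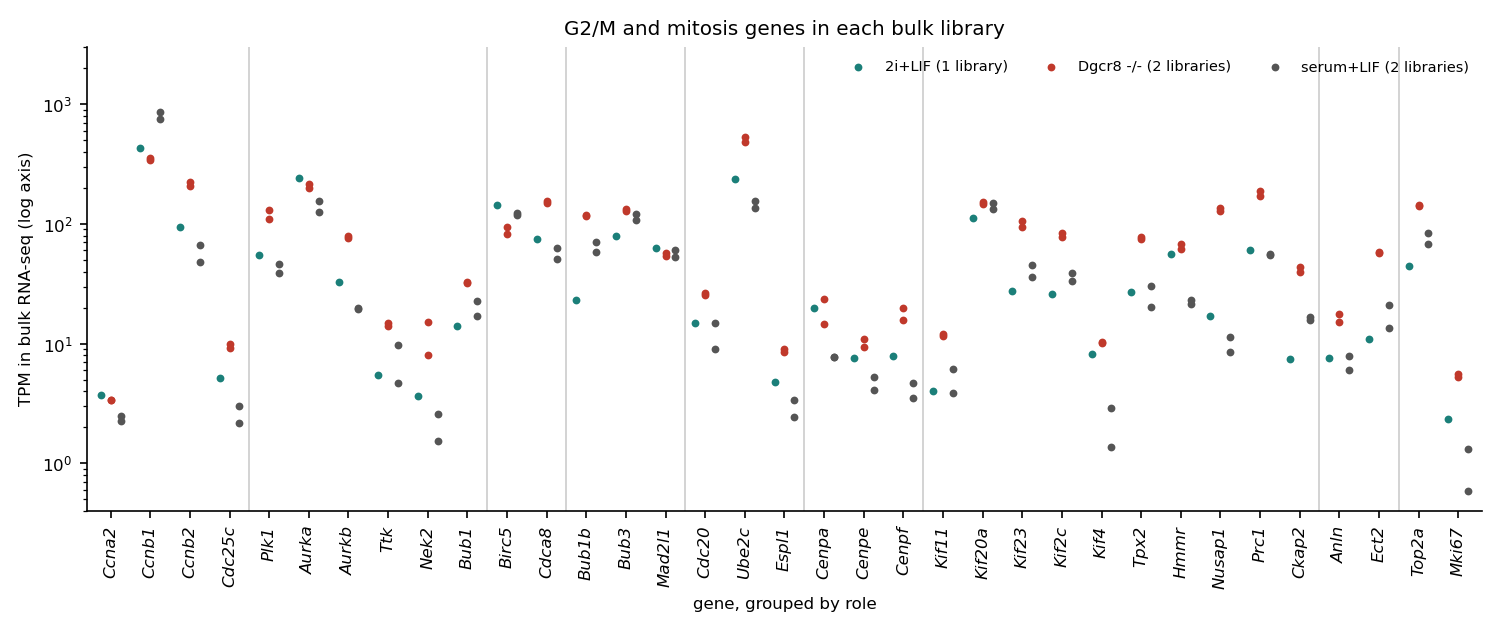
TPM of each of the 35 genes in each bulk library on a log axis, grouped by role, with 1 point per library for 2i, Dgcr8 -/- and serum. The 2 knockout libraries lie above both serum libraries for 31 genes, below both for Ccnb1 and Birc5, and overlap them for Mad2l1 and Kif20a. The share of all names in these positions was not taken. In the same comparison 62.5% of all names were called higher and 11.7% lower.

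Across the 35 genes, 8 were called higher in both comparisons, 3 (Bub1b, Ckap2 and Top2a) lower in 2i and higher in Dgcr8 -/- cells, and Ccnb1 lower in both. The 2i library lay above both serum libraries for 20 genes, below both for 10 and between them for 5. No share over all names was taken for these joint calls and positions, and both comparisons use the same serum libraries. Single calls covered 62.5% of all names as higher and 11.7% as lower in Dgcr8 -/- cells, and 20.4% and 11.8% in 2i. Centring each library on its own median name turned the direction of 11 genes in the comparison of Dgcr8 -/- with serum cells, counting those called before or after it. Among them were Aurka, Bub1b, Cdc20, Cenpe and Top2a. Without a filter on low values, 1 gene was called higher in 2i. Whether a gene changed differently in the 2 comparisons was not tested.

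Genes that act beside the 35 were counted from lists that hold none of them. The clearest contrast was with G1/S and replication genes. In Dgcr8 -/- cells, 14 of 34 tested were called higher and 7 lower, with a median log2 change of 0.35 that lay below the 0.92 of all names, and relative to the median name 5 were called higher and 18 lower. The replicative helicase subunit Mcm5 was at 152.2 TPM in 2i and at 161.2 and 160 TPM in Dgcr8 -/- cells, against 676 and 609 TPM in serum, and was called lower in both comparisons. Ccne1, or cyclin E1, fell by 1.80 in Dgcr8 -/- cells and Orc6, of the origin complex, fell by 1.09, while Ccnd1 (2.45), Chaf1b (1.96) and Mcm6 (1.80) rose. In 2i, 8 were called in each direction, with E2f1 (2.13), Ccnd3 (2.05) and Ung (1.30) higher and Mcm5 (-2.07), Ccne2 (-1.37) and Mcm7 (-1.24) lower. E2f1 was at 7.03 TPM in 2i and at 5.9 and 3.74 TPM in Dgcr8 -/- cells, against 1.05 and 0.639 TPM in serum. It passed the filter on mean TPM through the groups where it was high, so its call leans on the filter. Of all names, 62.5% were called higher and 11.7% lower in Dgcr8 -/- cells, and 20.4% and 11.8% in 2i.

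Of 7 CDK inhibitors listed, 4 passed the filter on mean TPM, and these were called higher in both comparisons, 3 of them in each also relative to the median name. The filter bears on this count, since Cdkn1b passed it through the groups where it was high, while Cdkn1c, at 0.105 TPM in 2i and 0.492 and 0.327 TPM in Dgcr8 -/- cells, against 2.27 and 1.11 TPM in serum, did not pass. Cdkn1a, or p21, was at 10.5 TPM in 2i and at 57.5 and 56.5 TPM in Dgcr8 -/- cells, against 1.32 and 1.38 TPM in serum. The change was 4.63 ± 0.22 in Dgcr8 -/- cells (limma, adjusted p = 9.7e-09) and 2.29 ± 0.27 in 2i. Cdkn2d (1.85) and Cdkn1b (1.70) followed it in Dgcr8 -/- cells, and Cdkn2d (2.34) and Cdkn2a (1.87) in 2i. Of the regulators of mitotic entry, 8 of 13 were called higher and 2 lower in Dgcr8 -/- cells, close to the 62.5% and 11.7% of all names, and 3 and 5 relative to the median name, with Cdc25b (2.49), Cdkn3 (2.40) and the kinase Mastl (1.46) higher and the Cdk subunits Cks1b (-1.22) and Cks2 (-0.80) lower. In 2i they were 2 higher, Cdkn3 (2.18) and Cks2 (0.82), and 2 lower, the kinase Melk (-1.34) and Gtse1 (-0.67). Of all names, 20.4% were called higher and 11.8% lower in 2i.

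Of the DREAM and MuvB regulators, which control this class of promoters, 7 of 11 were called higher and 2 lower in Dgcr8 -/- cells, again near the 62.5% of all names called higher, and 4 in each direction relative to the median name. Mybl2, or B-Myb, was at 35.3 TPM in 2i and at 40.6 and 40.7 TPM in Dgcr8 -/- cells, against 11.5 and 7.80 TPM in serum, and was called higher in both (1.79 and 1.99). Lin52 (2.05) and Rbl2 (1.94) rose in Dgcr8 -/- cells, and E2f4 (-0.89) and Tfdp1 (-0.62) fell. Rbl2 was at 0.161 TPM in 2i and 2.53 and 3.69 TPM in Dgcr8 -/- cells, against 0.0449 and 0.071 TPM in serum. It passed the filter on mean TPM only through the Dgcr8 -/- libraries, so its call as higher there leans on the filter. In 2i, 3 were higher, with Foxm1 and Lin37 at 1.03 each, and 2 lower, Tfdp1 (-2.20) and Rbbp4 (-0.73), beside 20.4% of all names called higher and 11.8% lower. Foxm1 was low throughout, at 2.68 TPM in 2i and 1.38 and 1.06 TPM in Dgcr8 -/- cells, against 1.10 and 0.542 TPM in serum. It passed the filter on mean TPM through the groups where it was higher, so its call in 2i leans on the filter.

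For the anaphase-promoting complex, 10 of 16 were called higher and 3 lower in Dgcr8 -/- cells, and 5 higher and 1 lower in 2i. These became 5 and 6 relative to the median name in Dgcr8 -/- cells and 4 and 3 in 2i, and the 10 of 16 equals the 62.5% of all names. Its target Pttg1, or securin, was at 191 TPM in 2i and at 474 and 508 TPM in Dgcr8 -/- cells, against 65.8 and 44.4 TPM in serum, and was called higher in both (1.80 and 3.16). Subunits moved apart in Dgcr8 -/- cells, with Anapc5 (3.17) and Anapc7 (2.15) higher and Cdc26 (-2.08), Anapc10 (-0.72) and the inhibitor Fbxo5 (-0.59) lower. In 2i, Ube2s (1.72) and Anapc10 (1.71) were higher and Anapc4 (-0.73) lower. Kinetochore genes were called higher for 22 of 27 and lower for 0 in Dgcr8 -/- cells (0 lower at an unadjusted p under 0.05), led by Casc5 (2.36), Incenp (1.99) and Dsn1 (1.96). In 2i, 5 of 27 were higher, near the 20.4% of all names, and Cenpt (-0.99) was lower. The largest rises were those of Cenpm (1.89), Sgol2 (1.24) and Pmf1 (1.04). Of all names, 11.7% were called lower in Dgcr8 -/- cells and 11.8% in 2i.

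Condensin and cohesin genes were called higher for 12 of 16 and lower for 0 in Dgcr8 -/- cells (0 lower at an unadjusted p under 0.05), led by Smc4 (2.97), Ncapg (1.79) and Smc3 (1.70). In 2i, Smc3 (0.97) and Ncaph2 (0.96) were higher, and Stag2 (-1.43), Ncapd3 (-0.99) and Ncapd2 (-0.72) lower. Of 20 further spindle and cytokinesis genes, 16 were called higher and 3 lower in Dgcr8 -/- cells, with Cep55 (2.91), Rhoa (2.02) and Cit (1.98) higher and Tuba1b (-1.28), Kpna2 (-0.40) and Tubb5 (-0.37) lower. In 2i, Cit (1.64) and Kifc1 (1.49) were higher, and Stmn1 (-1.61), Tuba1b (-0.59) and Kpna2 (-0.55) lower. Cit, at 0.395 and 0.734 TPM in serum, passed the filter on mean TPM through the groups where it was high. The background was 62.5% of all names called higher and 11.7% lower in Dgcr8 -/- cells, and 20.4% and 11.8% in 2i. Relative to the median name, these counts in Dgcr8 -/- cells were 7 higher and 3 lower for kinetochore genes, 6 and 2 for condensin and cohesin, and 10 and 5 for spindle genes, beside the background of 28.5% and 30.0%.

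The single-cell plates were compared as plates, on the mean TPM over the cells of each, with the same fit over 12397 names. No member was called lower by limma in either comparison as deposited, 0 also at an unadjusted p under 0.05, and 22 were called higher in Dgcr8 -/- cells and 19 in 2i, with medians of 1.59 and 1.70. The background was 50% higher and 2.97% lower for Dgcr8 -/- cells, and 39% and 1.82% for 2i, where the median name was 1.38 and 1.24 higher. Relative to the median name, 7 members were called higher and 2 lower in Dgcr8 -/- cells (background 22.2% and 23%), and 7 higher and 0 lower in 2i (background 15.5% and 18.7%), where 1 was lower at an unadjusted p under 0.05. Only the serum plates are replicated, so these calls lean on the spread shared across names.

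Nusap1 again stood highest in Dgcr8 -/- cells, at a mean of 53.1 TPM on the 2i plate and 93.9 TPM on the Dgcr8 -/- plate, against 8.89 and 9.43 TPM on the serum plates (changes of 2.41 and 3.22). Kif4 led in 2i, at 42.3 TPM on the 2i plate and 22.9 TPM on the Dgcr8 -/- plate, against 4.30 and 2.66 TPM on the serum plates (3.30 and 2.44). The other members called higher relative to the median name were Aurkb, Tpx2 and Mki67 in both comparisons, Nek2 and Top2a in Dgcr8 -/- cells, and Aurka and Anln in 2i. Ccnb1 differed between bulk and plates: its mean was 467 TPM on the 2i plate and 288 TPM on the Dgcr8 -/- plate, against 235 and 202 TPM on the serum plates, so no plate lay below serum as deposited. Relative to the median name it was called lower in Dgcr8 -/- cells (-0.98), as was Ube2c (-1.30), whose means were 1417 TPM on the 2i plate and 901 TPM on the Dgcr8 -/- plate, against 960.3 and 754 TPM on the serum plates. The bulk and plate tables were normalised separately, and the titles of the serum bulk libraries carry the plate numbers, so they may not be independent samples.

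G1/S genes were called higher for 7 of 35 and lower for 1 (Slbp, -1.53) in Dgcr8 -/- cells, with a median of 0.60, and relative to the median name 2 were higher and 18 lower. In 2i, 9 of 35 were called higher and 0 lower (0 also at an unadjusted p under 0.05), with E2f1 (2.62), Gins1 (2.30) and Uhrf1 (2.05) at the top. Cdkn1a rose by 4.65 in Dgcr8 -/- cells and 3.78 in 2i, and 4 of 5 CDK inhibitors were called higher in each, while Cdkn1c, at -1.05 in Dgcr8 -/- cells and -1.73 in 2i, was not called. The numbers called higher in Dgcr8 -/- cells were 6 of 13 entry regulators, 6 of 13 DREAM regulators, 4 of 16 for the anaphase-promoting complex, 10 of 27 kinetochore genes, 9 of 16 for condensin and cohesin and 11 of 20 spindle genes. In 2i they were 4, 4, 3, 7, 7 and 7 of the same totals. The background was 50% of all names in Dgcr8 -/- cells and 39% in 2i, so most of these counts lie at or below it. Relative to the median name the counts higher and lower in Dgcr8 -/- cells were 4 and 2, 4 and 3, 2 and 5, 3 and 5, 3 and 0, and 6 and 2. One further gene was called lower, the kinetochore gene Spc24 in Dgcr8 -/- cells (-1.49).

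A cell was counted as carrying the programme when at least 18 of the 35 genes were at TPM 10 or more. All 94 cells on the 2i plate did (100%, exact binomial 95% interval from 96.2%), 81 of 84 on the Dgcr8 -/- plate (96.4%, 89.9 to 99.3%), 20 of 54 on the NPC plate (37.04%, 24.3 to 51.3%), and 88 of 90 (97.8%, 92.2 to 99.7%) and 86 of 93 (92.5%, 85.1 to 96.9%) on the serum plates. The intervals cover counting error only. The NPC share became 70.4% with a limit of TPM 1 and 53.7% with at least 12 of the genes, while the Dgcr8 -/- and serum plates reached 100% under either. Cells with 16 to 19 of the genes, on either side of the limit, numbered 0, 3, 2, 15 and 19, in the same order of plates. The median cell held 32 of the 35 genes on the 2i plate, 31 on the Dgcr8 -/- plate, 12 on the NPC plate and 23 and 22 on the serum plates. At least 3 in 4 of the genes were at TPM 10 or more in 92 cells of the 2i plate (97.9%), 70 of the Dgcr8 -/- plate (83.3%), 11 of the NPC plate (20.4%), and 16 (17.8%) and 8 (8.60%) of the serum plates. With 1 plate per culture outside serum there is no test of these shares, and the plates with more members per cell were also those with more names detected, whose part was not tested.

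**Figure D3:**
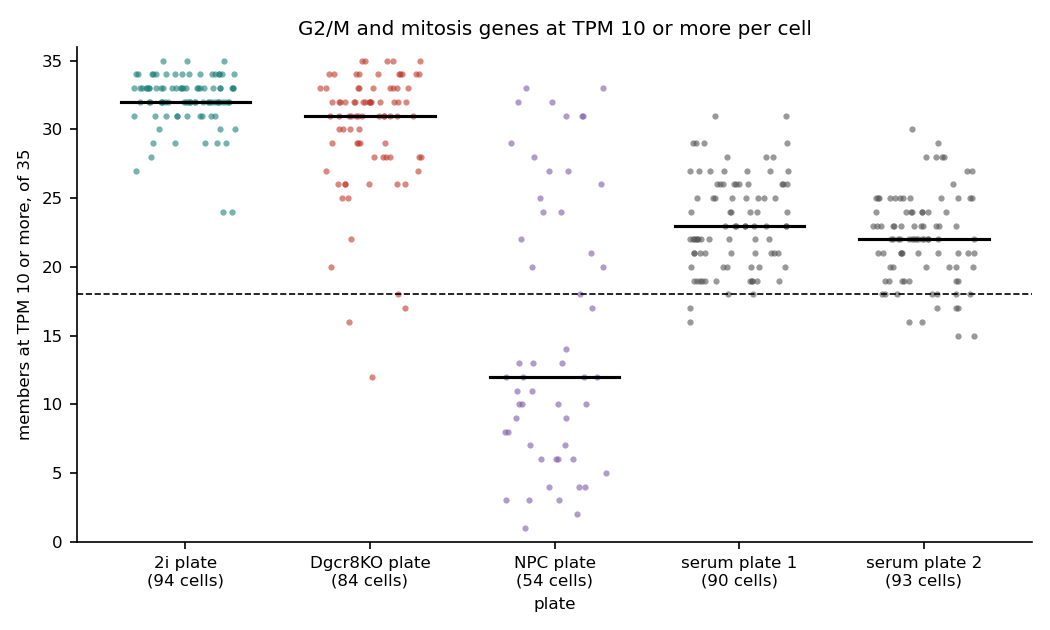
Number of the 35 genes at TPM 10 or more in each cell (vertical axis), by plate, with 1 point per cell, a bar at the median and a dashed line at 18 genes. The mESC plates centre at 32, 31, 23 and 22 genes, and NPCs spread from 1 to 33 genes around a median of 12.

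The NPCs split more widely than any mESC plate. Of the 54 cells, 25 held fewer than 12 of the genes and 17 fewer than 9, while the lowest mESC held 12, on the Dgcr8 -/- plate. All 4 NPCs that carried pluripotency markers carried the programme, with 33, 24, 20 and 31 of the genes. Without them, 16 of 50 NPCs carried it (32%, 19.5 to 46.7%) and the median was 11.5 genes. Ube2c averaged 319 TPM and was at TPM 10 or more in 77.8% of NPCs, against 100% of cells on every mESC plate. Mki67 was at TPM 10 or more in 51.9% of NPCs, Cdc20 in 48.1% and Nek2 in 7.41%. Without the 4 marker-carrying cells these shares were 76% for Ube2c, 54% for Mki67, 44% for Cdc20 and 6% for Nek2.

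Single genes differed between mESC plates in the share of cells that held them at TPM 10 or more. Mki67 did so in 78.7% of cells on the 2i plate and 79.8% on the Dgcr8 -/- plate, against 5.56% and 1.08% on the serum plates. Nusap1 did so in 95.7% on the 2i plate and 96.4% on the Dgcr8 -/- plate, against 34.4% and 37.6% on the serum plates. Kif4 did so in 93.6% on the 2i plate and 65.5% on the Dgcr8 -/- plate, against 12.2% and 2.15% on the serum plates. Both serum plates lay below the other mESC plates for all 3. Cenpe, at 84.0% and 64.3% against 12.2% and 9.68%, and Cdc25c, at 65.96% and 52.4% against 15.6% and 2.15%, were also lower on both serum plates, and were higher on the 2i than on the Dgcr8 -/- plate. At the other end, Ube2c, Bub3, Kif23 and the row listed for Plk1 stood at 98.9% or more on every mESC plate, and Espl1 at 21.3% on the 2i plate and 33.3% on the Dgcr8 -/- plate, against 2.22% and 0% on the serum plates. The median name also stood above serum on the 2i and Dgcr8 -/- plates, and its part in these shares was not tested. Relative to it, plate changes in 2i and Dgcr8 -/- cells were 0.51 and 0.20 for Cenpe, 0.86 and 0.80 for Cdc25c, and 0.30 and 0.57 for Espl1. They were 0.81 and 1.24 for Mki67, 1.17 and 1.84 for Nusap1, and 2.05 and 1.06 for Kif4.

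Levels of the 35 genes moved together from cell to cell on every plate. The mean Spearman correlation over the 595 pairs was 0.195 on the 2i plate (94 cells), 0.384 on the Dgcr8 -/- plate (84 cells), 0.459 on the NPC plate (54 cells) and 0.236 and 0.178 on the serum plates (90 and 93 cells). Over all pairs of names detected at TPM 1 or more in at least 20% of the cells, it was 0.00420, 0.0136, 0.0295, 0.0375 and 0.0295 on the same plates. Pairs above 0 made up 91.3%, 99.8%, 99.3%, 96.1% and 88.6%. These are descriptions across cells that share a plate and differ in the number of names detected. With the number of detected names per cell regressed out, the means were 0.190, 0.372, 0.447, 0.190 and 0.152. Without the 4 marker-carrying cells the NPC mean was 0.437.

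The closest pairs differed by plate. They were Nusap1 with Ube2c on the 2i plate (0.679), Cenpf with Ube2c on the Dgcr8 -/- plate (0.820), Aurkb with Ttk among NPCs (0.754), and Ccnb1 with Nusap1 (0.654) and with Top2a (0.700) on the serum plates. Ccna2 and Espl1 ran against each other on the 2i plate (-0.348). Each gene was also set against the mean of the other members. Over the 4 mESC plates the lowest such correlation was 0.575 for Aurka, 0.568 for Bub3, 0.560 for Ccnb1, 0.521 for Plk1, and 0.517 for both Nusap1 and Tpx2. It was 0.013 for Espl1, 0.026 for Ccna2 and 0.095 for Bub1, all 3 on the 2i plate, where Ccnb1 had 0.659. In NPCs Ccnb1 had 0.813 and Plk1 0.224, or 0.780 and 0.190 without the 4 marker-carrying cells. The order of the 35 genes by this measure was most alike between the 2i and Dgcr8 -/- plates (Spearman 0.737 over 35 genes) and the pair of serum plates (0.629), and NPCs shared little of it with any mESC plate (-0.122 to 0.141).

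Variability was read as the SD over cells of log2(TPM + 1), minus the running median of names of like mean level. The median excess of the 35 genes was -0.011 on the 2i plate, 0.201 on the Dgcr8 -/- plate, 0.382 on the NPC plate, and -0.034 and -0.015 on the serum plates. Genes above the trend numbered 16, 24, 30, 14 and 15 of 35 on these plates, where 49.4 to 49.7% of all names lie by construction. In the top 10% of all names stood 0, 7, 14, 0 and 0 of them. On the Dgcr8 -/- plate the excess was 1.09 for Ccnb1, 0.92 for Aurka and 0.87 for Aurkb, and in NPCs 1.27 for Ccnb1 and 1.23 for Ube2c. On serum plate 1 and serum plate 2 the excess of Ccnb1 was 0.024 and 0.158, and on the 2i plate 0.128. Without the 4 marker-carrying cells the NPC median was 0.353, with 30 genes above the trend and 13 in the top 10%, and the excess was 1.08 for Ccnb1 and 1.15 for Ube2c. With log2(TPM + 10) in place of log2(TPM + 1), the median excess became 0.12 on the Dgcr8 -/- plate and 0.19 among all NPCs.

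The score of a cell, its mean log2(TPM + 1) over the 35 genes, had a median of 6.02 on the 2i plate (SD 0.367), 5.80 on the Dgcr8 -/- plate (SD 0.918), 2.50 on the NPC plate (SD 1.85), and 4.22 and 4.14 on the serum plates (SD 0.459 and 0.380). It rose with the number of names detected on each plate, with Spearman correlations of 0.294, 0.256, 0.234, 0.478 and 0.384. Against the score of G1/S and replication genes its correlation was -0.448 on the 2i plate and -0.137 on the Dgcr8 -/- plate, but 0.559 among NPCs and 0.394 and 0.229 on the serum plates. Single G1/S genes split in the same way: 7 of 36 correlated above 0 with the score on the 2i plate, 12 of 36 on the Dgcr8 -/- plate, 30 of 35 among NPCs, and 33 of 35 and 29 of 34 on the serum plates. Their medians were -0.184 on the 2i plate, -0.056 on the Dgcr8 -/- plate, and 0.274 and 0.115 on the serum plates. Over 8539 names outside the 35, the medians on these plates were 0.022, 0.049, 0.167 and 0.121. On serum plate 2, G1/S genes thus lay near the typical name. No such background was taken among NPCs. Without the 4 marker-carrying cells the NPC correlation was 0.507.

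**Figure D4:**
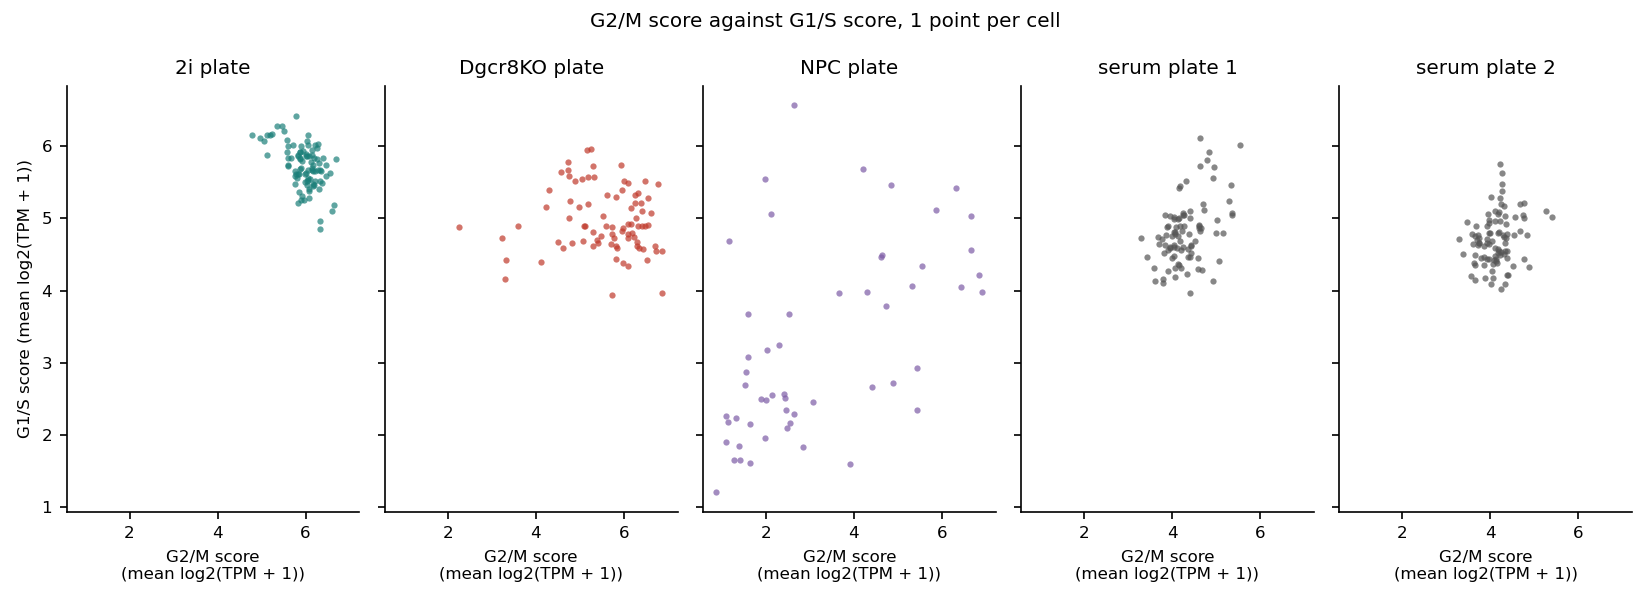
Score of the 35 G2/M genes (horizontal axis) against the score of G1/S and replication genes (vertical axis), both as mean log2(TPM + 1), with 1 point per cell and 1 panel per plate. Cells run downward to the right on the 2i plate (-0.448), spread along the G2/M axis on the Dgcr8 -/- plate, and run upward to the right among NPCs (0.559).

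Among NPCs, cells with and without the programme also differed in lists outside it. The median score of G1/S genes was 4.14 in the 20 cells with it and 2.47 in the 34 without, and that of other spindle and cytokinesis genes 5.32 and 2.95. All 4 marker-carrying cells were among the 20, and without them these medians were 4.06 and 2.47 for G1/S genes and 5.47 and 3.12 for spindle genes. Fibroblast markers ran the other way, at 1.86 and 2.99, with a correlation of -0.417 to the score (-0.385 without the 4 cells), and at 1.98 and 2.99 without the 4 cells. Neural precursor markers stood at 3.84 and 4.02, and at 4.12 and 4.02 without the 4 cells, where their correlation to the score turned to 0.0262, against -0.0980 with them. All 8 fibroblast markers were detected on the NPC plate, with a summed mean of 321 TPM and a range of 1.24 to 2307 TPM over cells, against summed means of 0.667 TPM on the 2i plate, 1.97 TPM on the Dgcr8 -/- plate and 0.333 and 0.589 TPM on the serum plates. The part of cell type in the NPC split was not tested.

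Lists outside the 35 genes were also set against the score. The correlation of the spindle and cytokinesis list was 0.711 on the 2i plate, 0.887 on the Dgcr8 -/- plate, 0.855 among NPCs and 0.741 and 0.691 on the serum plates. That of the kinetochore list was 0.537, 0.560, 0.840, 0.638 and 0.557. Entry regulators had 0.285, 0.744, 0.800, 0.604 and 0.596, condensin and cohesin 0.30, 0.569, 0.783, 0.701 and 0.660, and the anaphase-promoting complex 0.195, 0.472, 0.531, 0.664 and 0.656, each lowest on the 2i plate. DREAM and MuvB regulators had 0.109, 0.154, 0.353, 0.555 and 0.342. Of 8539 names outside the 35 that were detected on all 4 mESC plates, those most like the score, by the lowest of the 4 correlations, were Arl6ip1 (0.573), the Cdk subunit Cks2 (0.543), Cdk1 (0.520), Hn1 (0.499) and C79407 (0.495), which is also listed as Knl2. They were followed by Cdca2 (0.472), the calmodulin gene Calm2 (0.435), Smc4 (0.431), Ckap2l (0.427) and the importin Kpna2 (0.426). The median of all ranked names was -0.059. In NPCs, Cks2 (0.706) and Cdk1 (0.624) held such values, and Calm2 had 0.0548. At the other end stood Zfp935, Ankfy1, Topbp1, A630055G03Rik and BC028528, whose highest correlation over the 4 plates was -0.248, -0.244, -0.244, -0.233 and -0.228. Topbp1, which acts in the replication checkpoint, had 0.448 in NPCs.

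The ChIP table holds, for each gene, the read count in a window of 1000 bases on build mm9, whose place relative to the gene is not stated. The windows of Ccnb1 (chr13:101555941-101556941) and Nusap1 (chr2:119443533-119444533) are examples, as deposited. Library totals over the 23142 windows ran from 332811 to 15293599 counts, and the median window held 13 to 20 counts for H3K36me3, H3K27me3 and H3K9me3. Levels are given as CPM, each count scaled to the same total over all windows, and with 1 library per mark and culture no difference was tested.

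The windows of all 35 genes stood above the median window in H3K4me3, a mark of active promoters, in H3K27ac, a mark of active promoters and enhancers, and in RNAP2, in each of the 3 cultures. The median H3K4me3 level of the 35 was 127.5 CPM in 2i, 110.8 CPM in Dgcr8 -/- cells and 113.97 CPM in serum, against 13.2, 19.5 and 17.9 CPM over all windows. For H3K27ac it was 101.8, 92.6 and 100.4 CPM, against 17.98, 15.1 and 19.9 CPM, and for RNAP2 95.5, 87.1 and 98.7 CPM, against 19.98, 19.6 and 17.8 CPM. The Polycomb mark H3K27me3 was below the median window for most, with 8, 4 and 5 of 35 above it in 2i, Dgcr8 -/- and serum cells and 0 in the top 25% of windows in any of the 3. H3K9me3 was above the median for 11, 7 and 8 of them.

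Levels differed widely between the genes. Ccnb1 had H3K4me3 at 218 CPM in 2i and 190.5 CPM in Dgcr8 -/- cells, against 234 CPM in serum, with RNAP2 at 193 CPM in 2i and 130.02 CPM in Dgcr8 -/- cells, against 218 CPM in serum. Ube2c had RNAP2 at 236 CPM in 2i and 159.5 CPM in Dgcr8 -/- cells, against 174.97 CPM in serum. Nusap1, so much higher in knockout RNA, had RNAP2 at 130.97 CPM in 2i and 106.1 CPM in Dgcr8 -/- cells, against 135.5 CPM in serum, and H3K27ac at 117.1 CPM in 2i and 123.6 CPM in Dgcr8 -/- cells, against 85.7 CPM in serum. Its polymerase level in the knockout was not above that in serum, which did not set it apart from the other members. Relative to the median window, its log2 ratio of RNAP2 was -0.41, beside a median of -0.35 over the 35 genes (4 of 35 higher). Cdc25c was lowest in H3K4me3, at 40.2 CPM in 2i and 25.0 CPM in Dgcr8 -/- cells, against 46.3 CPM in serum.

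As log2 ratios to serum, relative to the median window, H3K4me3 was lower for all 35 genes in Dgcr8 -/- cells, with a median of -0.49, and near 0 in 2i (0.01, 18 of 35 higher). Other windows with much of a mark showed part of this, since the top 25% of windows by H3K4me3 had medians of -0.39 in Dgcr8 -/- cells and -0.08 in 2i. H3K27ac had medians of 0.31 in Dgcr8 -/- cells (27 of 35 higher) and 0.29 in 2i (33 of 35 higher), against 0.27 and 0.18 in its top 25%. RNAP2 had -0.35 in Dgcr8 -/- cells (4 of 35 higher) and -0.15 in 2i (12 of 35 higher), against -0.16 and -0.21 in its top 25%. H3K36me3 had 0.13 and 0.23, H3K27me3 0.26 and 0.28, H3K9me3 0.01 and 0.11, and WCE 0.03 and 0.00 in Dgcr8 -/- cells and 2i. Subtracting WCE first moved H3K4me3 to -0.029 in Dgcr8 -/- cells and 0.31 in 2i, RNAP2 to -0.21 and 0.21, and H3K27ac to 0.22 and 0.38, so the ratios of all 3 depend on the treatment of background.

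**Figure D5:**
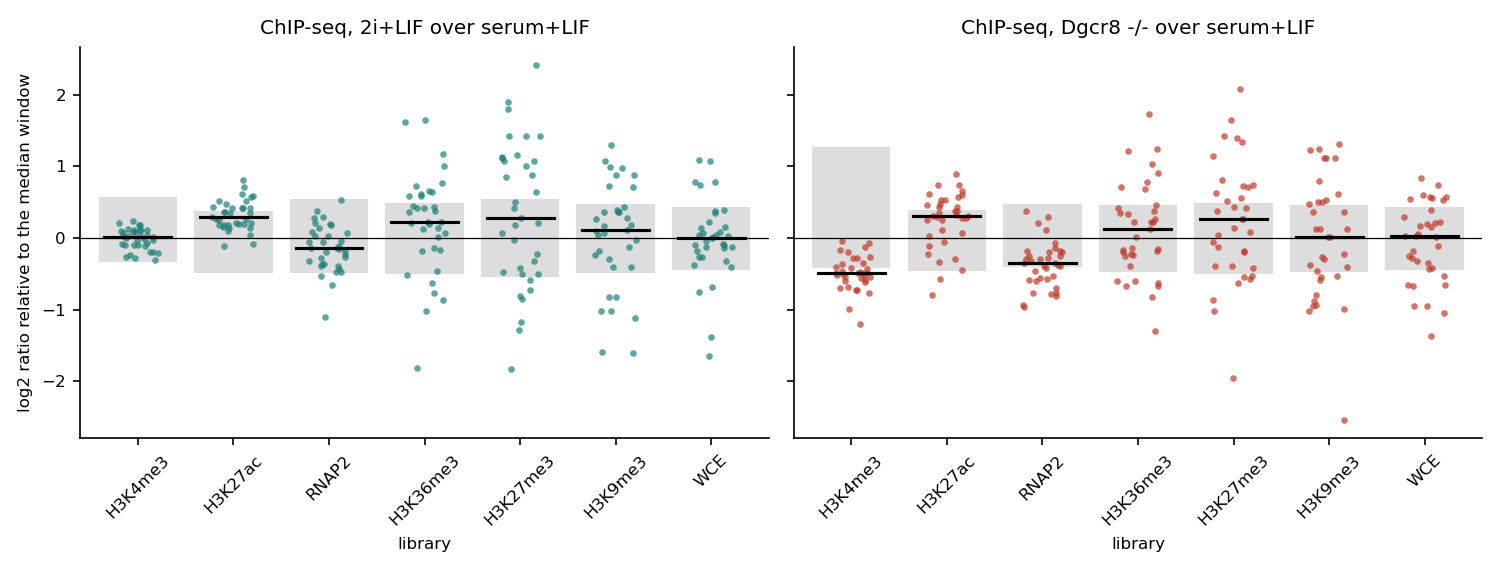
Log2 ratio of the window CPM to serum, relative to the median window, for 2i (left) and Dgcr8 -/- cells (right), with 1 point per gene, a bar at the median of the 35 genes and a grey box between the quartiles of all windows. Every H3K4me3 point lies below 0 in Dgcr8 -/- cells, with a median of -0.49.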

How the data were processed

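RNA was measured in single mESCs and NPCs on C1 chips and in bulk mESCs, and ChIP-seq in bulk mESCs. Bowtie, RSEM and mm9 are named, without roles, in the submitters' processing notes. RNA values were deposited as natural log of TPM + 1 (judged from the values and reversed here), and the deposited ChIP table holds read counts per window. Names turned into dates (51 in the mESC and 25 in the NPC table) were left out. The 35 genes and the lists beside them were chosen with earlier results of these data known.

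Groups came from the labels (culture, genotype, plate). Bulk libraries and plate means were compared with limma 3.58.1 in R 4.3.3, its variance trend on and log2(TPM + 1) as input, for names with a mean TPM of at least 1, 1 mean per group, Benjamini-Hochberg over all tested names, threshold 0.05. A fold change on this scale understates the change of low genes. On simulated data with the 10081 names of the bulk Dgcr8 -/- comparison, 66% of 100 changes of 2-fold and 100% of 100 changes of 4-fold were recovered, and 16 unchanged names were called. The real comparison called 62.5% of all names higher and 11.7% lower, so these rates may not carry over to it. No cell was left out (0 were below 50% of the median detected names of their plate) and no doublet caller was run. Cell-to-cell measures are descriptions. ChIP counts were scaled to CPM, with 1 count added in ratios. Named genes followed a rule: every member, up to 3 called genes per list, direction and comparison, and the 10 most and 5 least similar names. Alternatives tried were the pseudocount, the filter, centring, quantile normalisation, the trend, single libraries left out, a replicate block, limits for a carried programme, scaling of cells, and subtraction of WCE.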

Additional observations from a re-analysis of the deposited data

How the results depend on the processing

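Counts of called genes moved with how the libraries were put on 1 scale. Depth is unknown for RNA, the 2i and Dgcr8 -/- cells have 1 plate each, and single ChIP libraries leave no measure of replicate error. Setting the median change to 0 and leaving out the 4 marked NPCs were chosen after seeing the data. Over the single genes, 940 values under an alternative kept their side of the threshold or, where no test could be run, lay within the SE of the main value. Some of these 940 turned direction without a call under either setting. A further 39 gained a call, 35 turned direction with a call under the main or the alternative setting, and the others lost their call. No cause was tested.

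In bulk 2i, the 8 genes called higher became 1 without a filter on low values, 4 after median centring, 3 without a trend and 5 with the median change set to 0, with 3 to 10 when 1 library was left out (3 without either Dgcr8 -/- library, 5 without serum library 2). The 4 called lower became 10 after centring, 7 after quantile normalisation and 10 with the median change set to 0, with 2 to 6 when 1 library was left out (2 without either Dgcr8 -/- library), and the median change of the 35 genes became 0.070 after centring and lay between 0.20 and 0.40 with 1 library left out. In bulk Dgcr8 -/- cells, the 29 called higher became 11 after centring and 16 with the median change set to 0, with 23 to 29 when 1 library was left out. The 2 called lower became 8 after centring, 4 after quantile normalisation, 1 without a trend and 6 with the median change set to 0, with 1 to 2 when 1 library was left out (1 without either Dgcr8 -/- library). The median change of 1.29 became 0.17, 0.60 and 0.37 under centring, quantile normalisation and the median change set to 0, and lay between 1.16 and 1.42 with 1 library left out.

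On the plates, 2i had 5 called higher after centring, 30 with the mean of log2 over cells and 7 with the median change set to 0, and 1 called lower after centring, with median changes of 0.39 and 0.46 under centring and the median change set to 0. Dgcr8 -/- cells had 6 and 7 called higher and 5 and 2 lower under these 2 settings, with medians of 0.042 and 0.21. Without 1 serum plate the medians lay between 1.57 and 1.80 in 2i and between 1.55 and 1.71 in Dgcr8 -/- cells, with no test.

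The genes listed here turned direction and were called under the main or the alternative setting. Genes that turned with a call under neither were left out, such as Ccna2 on the 2i plate (0.92 to -0.32 with the median change set to 0). In bulk Dgcr8 -/- cells after centring, the listed genes were Ccna2 (-0.74), Aurka (-0.55), Bub1 (-0.43), Bub1b (-0.26), Bub3 (-0.92), Cdc20 (-0.032), Cenpe (-0.13), Top2a (-0.21), Kif11 (-0.0036), Kif20a (-1.03) and Ttk (-0.14). After quantile normalisation they were Ccna2 (-0.69), Bub1 (-0.14), Cenpe (-0.11) and Ttk (-0.035), and with the median change set to 0 Aurka (-0.35), Bub1 (-0.23), Bub1b (-0.053), Bub3 (-0.72), Top2a (-0.010) and Kif20a (-0.83). On the 2i plate they were Mad2l1 (-0.28 after centring, -0.20 with the median change set to 0) and Ckap2 (-0.78 after centring). On the Dgcr8 -/- plate they were, after centring, Ccna2 (-0.85), Ccnb1 (-1.15), Bub1 (-0.057), Cdc20 (-0.86), Ube2c (-1.46), Birc5 (-1.09), Ect2 (-0.10) and Cdca8 (-0.22), and, with the median change set to 0, Ccnb1 (-0.98), Ube2c (-1.30) and Cdca8 (-0.054).

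With the replicate block, 29 genes were called higher and 2 lower in bulk Dgcr8 -/- cells, as without it. Libraries with the same number did not deviate together (correlation -0.0255 over 10081 names). With 2 libraries per group this cannot settle whether the numbers pair them, and 2i could not be fitted with the block.

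The share of cells that carry the programme became 100% on the Dgcr8 -/- plate and on both serum plates at TPM 1 or with at least 12 of the genes, and 100% on serum plate 2 with cells scaled by the median of ratios. NPCs reached 70.4% at TPM 1 and 53.7% with at least 12 of the genes. The variability excess became 0.12 on the Dgcr8 -/- plate and 0.19 among NPCs with log2(TPM + 10), and 0.353 without the 4 marked NPCs. Mean co-variation on serum plate 1 became 0.190 with detected names regressed out.

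With WCE subtracted first, the ChIP medians became 0.31 (2i) and -0.029 (Dgcr8 -/-) for H3K4me3, 0.38 and 0.22 for H3K27ac, and 0.21 and -0.21 for RNAP2, the first of which turned direction. For H3K27me3, H3K9me3 and H3K36me3 in 2i too few windows exceeded WCE to give a value.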
